A study of Rattus norvegicus with 232 samples.

Results

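Expression of 10 genes that mark astrocytes was followed through the brains of inbred rats. The genes were Gfap, Aqp4, Aldh1l1, S100b, Slc1a2, Slc1a3, Glul, Gja1, Gjb6 and Aldoc. They were chosen by name as common astrocyte markers. All 10 were present among the 20859 genes of the RefSeq gene table of processing version v7.1. The study labelled 232 RNA samples of whole brain from 74 strains of the Hybrid Rat Diversity Panel, and the table held 214 libraries of 197 animals from all 74 strains. Of the 74 strains, 30 with 88 animals belonged to the HXB/BXH recombinant inbred family, whose parents were SHR/OlaIpcv and BN-Lx/Cub. A further 19 strains with 43 animals belonged to the FXLE/LEXF family, whose parents were F344/Stm and LE/Stm. The remaining 25 strains with 66 animals were classic inbred strains, a group that here includes the 4 progenitors. An inbred strain has been mated among siblings until its animals share nearly the same genotype, so that animals of 1 strain serve as replicates of that genotype. The labels name no transgene or agent in any group. Of the samples, 193 carry a treatment label of none and 148 are labelled male. Titles of samples also name untreated rats, including samples without that label. For the strains that the study covered, its methods describe male rats and RNA from 1 side of each brain.

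Astrocytes are the star-shaped glial cells that surround synapses with fine processes and touch blood vessels with endfeet. They clear glutamate from the synapse, turn it into glutamine for return to neurons, buffer potassium and water, and store glycogen. Their filament protein GFAP is abundant in white matter, in hippocampus and in astrocytes that react to injury, and is low in many cortical astrocytes, whereas ALDH1L1 labels most astrocytes of the brain. A bulk sample of whole brain holds all regions and cell types together, so fewer astrocytes and less RNA per astrocyte cannot be told apart in any value given here.

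The values are on a log2 scale. How the libraries of the v7.1 tables were scaled is not given in the sources used here. No read counts were given, so the sequencing depth is unknown. Library medians lay between 8.18 and 8.42. Of the strains, 54 had 3 animals, 15 had 2 and 5 had 1. By the sample descriptions and column names, libraries came from 17 batches, and 62 strains had libraries in 2 or more of them. For 23 libraries the sample title gives another sequencing batch, and results with batch are from the former numbers unless titles are named. SHR/OlaIpcv was sequenced again and again: its animal 1 had 12 libraries and its animal 4 had 6, which were averaged to 1 value per animal. In 4 libraries, the 3 labelled LEW/Crl and that of HXB17/Ipcv animal 2, the mean level of the Y-linked genes Eif2s3y, Kdm5d and Uty was 9.06 to 9.46, below the 9.94 to 11.5 of the other 210 libraries. Without these 4, chosen after the data were seen, each count of called members over all strains, within panels, in the contrasts, in the correlations with Gfap and among transcripts was the same number. Over all strains 36.4% of all genes were then called. LEXF5/Stm animal 2 also stood apart, as the lowest of all 197 animals in Aqp4, S100b, Slc1a3, Glul and Gjb6. Without it, also chosen after the data were seen, the same counts were again the same numbers, and 36.2% of all genes were called over all strains. The libraries of LEW/Crl and of the LE/Stm animal had also been held in doubt from earlier results. Where nothing tells whether animals of a strain came from separate litters, p-values measure only the spread between these animals.

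In the rn6 assembly, the build of the deposited annotation of the v5 tables, Gfap lies on chromosome 10 from 90990762 to 90999506 on the minus strand, and Aldoc lies on the same chromosome from 65586504 to 65590126 on the plus strand. S100b (13130636 to 13142856, minus strand) and Gja1 (37876650 to 37889089, plus strand) lie on chromosome 20. Aldh1l1 lies on chromosome 4 (123516788 to 123557501), Slc1a3 on chromosome 2 (57860883 to 57935363) and Gjb6 on chromosome 15 (37400889 to 37410848), all on the minus strand. Glul lies on the plus strand of chromosome 13 (71331052 to 71340229) and Aqp4 on the minus strand of chromosome 18 (6765945 to 6782996). A position of Slc1a2 was not used here. These are spans of whole genes, exons and introns together.

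To see how strongly strain set the level of each member, its R2 was computed, the share of the variance of a gene that strain means account for in a 1-way layout. With this number of strains and animals, an R2 of 0.372 is expected for a gene that no strain affects, and the median over all genes was 0.451. A gene was called when limma's moderated F-test over strains passed a 5% false discovery rate over all 20859 genes. Of the 10 astrocyte genes, 6 were called (Gfap, Aqp4, Aldh1l1, Glul, Gja1 and Gjb6), where 37.3% of all genes were. S100b, Slc1a2, Slc1a3 and Aldoc did not pass. The median R2 of the members was 0.522. The members thus ran from the upper part of the genome-wide distribution (Glul, percentile 95.9) to below its middle (Slc1a2, percentile 37.6).

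**Figure D1:**
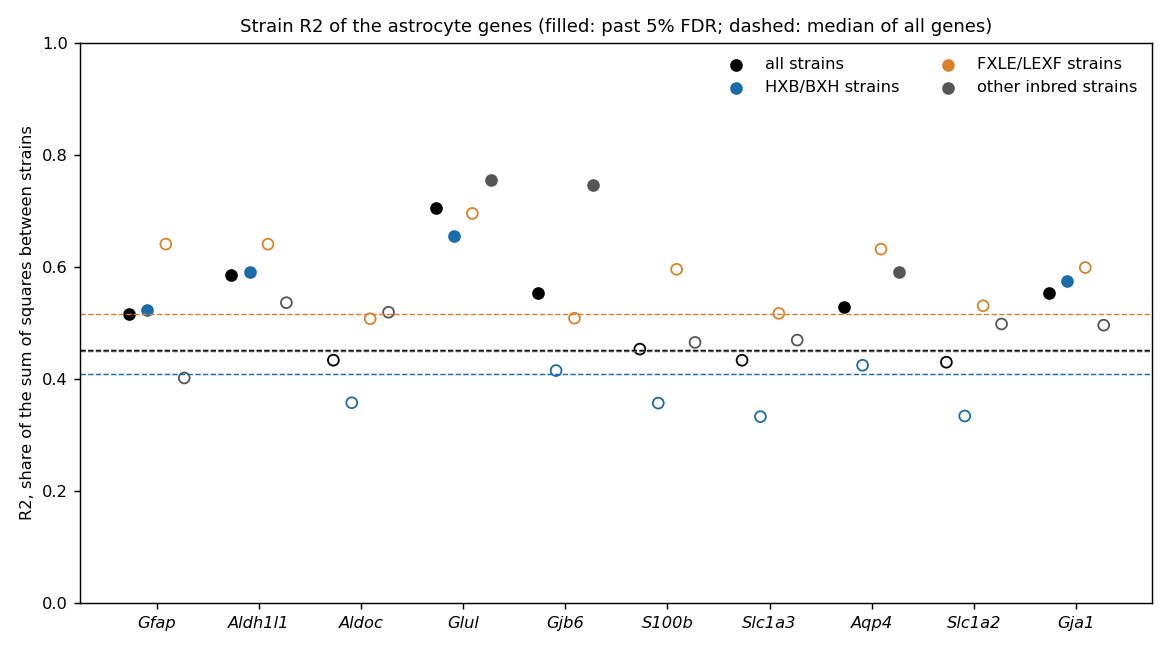
R2 of the 10 astrocyte genes (vertical axis) over all strains and within each panel (colours), with filled points past 5% FDR, open points not, and dashed lines at the median over all genes. Over all strains Glul stands highest at 0.704 and Slc1a2 lowest at 0.430.

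The lowest and highest strains named for each gene are those among the 69 strains with 2 or more animals. They were picked by the level that is then given, so their distance is a description and supports no strain difference. Single animals lay beyond them for Gfap (FXLE13/Stm, 13.98, lower than the lowest of the 69 by a margin lost in rounding), Glul (FXLE13/Stm, 15.41), Aldoc (FXLE13/Stm, 14.87, and BUF/MnaMcwi, 15.54), S100b (BUF/MnaMcwi, 15.38), Aldh1l1 and Slc1a3 (LE/Stm, 11.16 and 14.86). Gfap encodes the main intermediate filament of the mature astrocyte. Its level ran from 13.81 in the lowest animal to 14.80 in the highest, with a median of 14.31. The lowest strain mean among the 69 strains with 2 or more animals was that of LEXF1A/Stm, whose animals were at 13.99 and 13.97. The highest was that of HXB15/Ipcv, with animals at 14.74, 14.52 and 14.65. Their means were 1.58-fold apart. FXLE15/Stm (14.67 and 14.58) stood next to the highest and HXB10/Ipcv (13.96 and 14.06) next to the lowest. The R2 of Gfap was 0.516 (adjusted p = 0.00672). The SD between animals of 1 strain was 0.181, against an SD of 0.151 between strain means, so the spread between animals of a strain was at least that between strain means.

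Aqp4 encodes aquaporin-4, the water channel of the astrocyte endfoot, and had the widest range of the 10 genes, 1.86-fold between strain means. LEXF5/Stm was lowest, with animals at 13.87 and 13.50, and LEXF11/Stm was next with 13.97 and 13.67. LH/MavRrrc was highest with 14.58, 14.53 and 14.63, followed by BN-Lx/Cub with 14.68, 14.38 and 14.48. The R2 was 0.528 (adjusted p = 0.00325). S100b, a calcium-binding protein released by astrocytes, was also lowest in LEXF5/Stm (15.15 and 14.78, the latter being animal 2), and highest in LEXF2C/Stm (15.42, 15.35 and 15.29). Its range of 1.31-fold was narrow and its R2 of 0.453 did not pass (adjusted p = 0.118).

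Glul encodes glutamine synthetase, which turns glutamate and ammonia into glutamine. It had the highest R2 of the 10 genes, 0.704 (adjusted p = 1.4e-09), although its strain means were only 1.29-fold apart. PVG/Seac was lowest with 15.40, 15.43 and 15.49, and DA/OlaHsd was next with 15.46, 15.41 and 15.48. BXH12/Cub stood at 15.81, 15.73 and 15.89 and the libraries labelled LEW/Crl, which were low in Y-linked genes, at 15.79, 15.84 and 15.79. Its animals were the closest to each other, with a within-strain SD of 0.0746. Slc1a2 (GLT-1) and Slc1a3 (GLAST) encode the transporters that carry most glutamate into astrocytes, and neither passed (R2 of 0.430 and 0.433, adjusted p = 0.186 and 0.197). Slc1a2 ran from BDIX/NemOdaMcwi (14.07 and 13.72) to HXB17/Ipcv (14.34, 14.37 and 14.41, of which the middle value is its library low in Y-linked genes). Slc1a3 ran from LEXF5/Stm (14.60 and 14.29) to BN/NHsdMcwi (14.87, 14.78 and 14.74). Their strain means spanned 1.39-fold and 1.28-fold.

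Aldh1l1 encodes a folate enzyme, 10-formyltetrahydrofolate dehydrogenase, and is a widely used label of astrocytes. BN-Lx/Cub was lowest, with animals at 10.08, 10.49 and 10.37, and HXB24/Ipcv was next with 10.31, 10.50 and 10.26. FXLE15/Stm, which was also high in Gfap, was highest with 11.02 and 10.94. HXB2/Ipcv followed at 10.73 and 11.19. The strain means were 1.59-fold apart and the R2 was 0.585 (adjusted p = 7.16e-05). Aldoc encodes aldolase C, the brain form of a glycolytic enzyme. It was lowest in HXB27/Ipcv (14.95, 14.89 and 15.28) and highest in HXB2/Ipcv (15.37 and 15.70). Its R2 of 0.433 did not pass (adjusted p = 0.164), and its within-strain SD of 0.175 exceeded the SD of 0.120 between strain means.

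Gja1 and Gjb6 encode connexin 43 and connexin 30, which form the gap junctions that couple astrocytes. Both were called, with an R2 of 0.553 (adjusted p = 6.73e-04) and 0.554 (adjusted p = 0.0018). Gja1 was lowest in HXB3/Ipcv (12.54, 12.60 and 12.79) and highest in HXB22/Ipcv (13.48, 13.33 and 13.37), 1.68-fold apart, so that both ends of its order were strains of 1 recombinant family. Gjb6 was lowest in LEXF6B/Stm (10.46 and 10.49) and highest in FHH/EurMcwi (10.80, 10.88 and 10.89), 0.38 apart on the log2 scale. The connexins were called alike but did not share an order of strains: their strain means correlated at r = 0.08 over 74 strains.

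**Figure D2:**
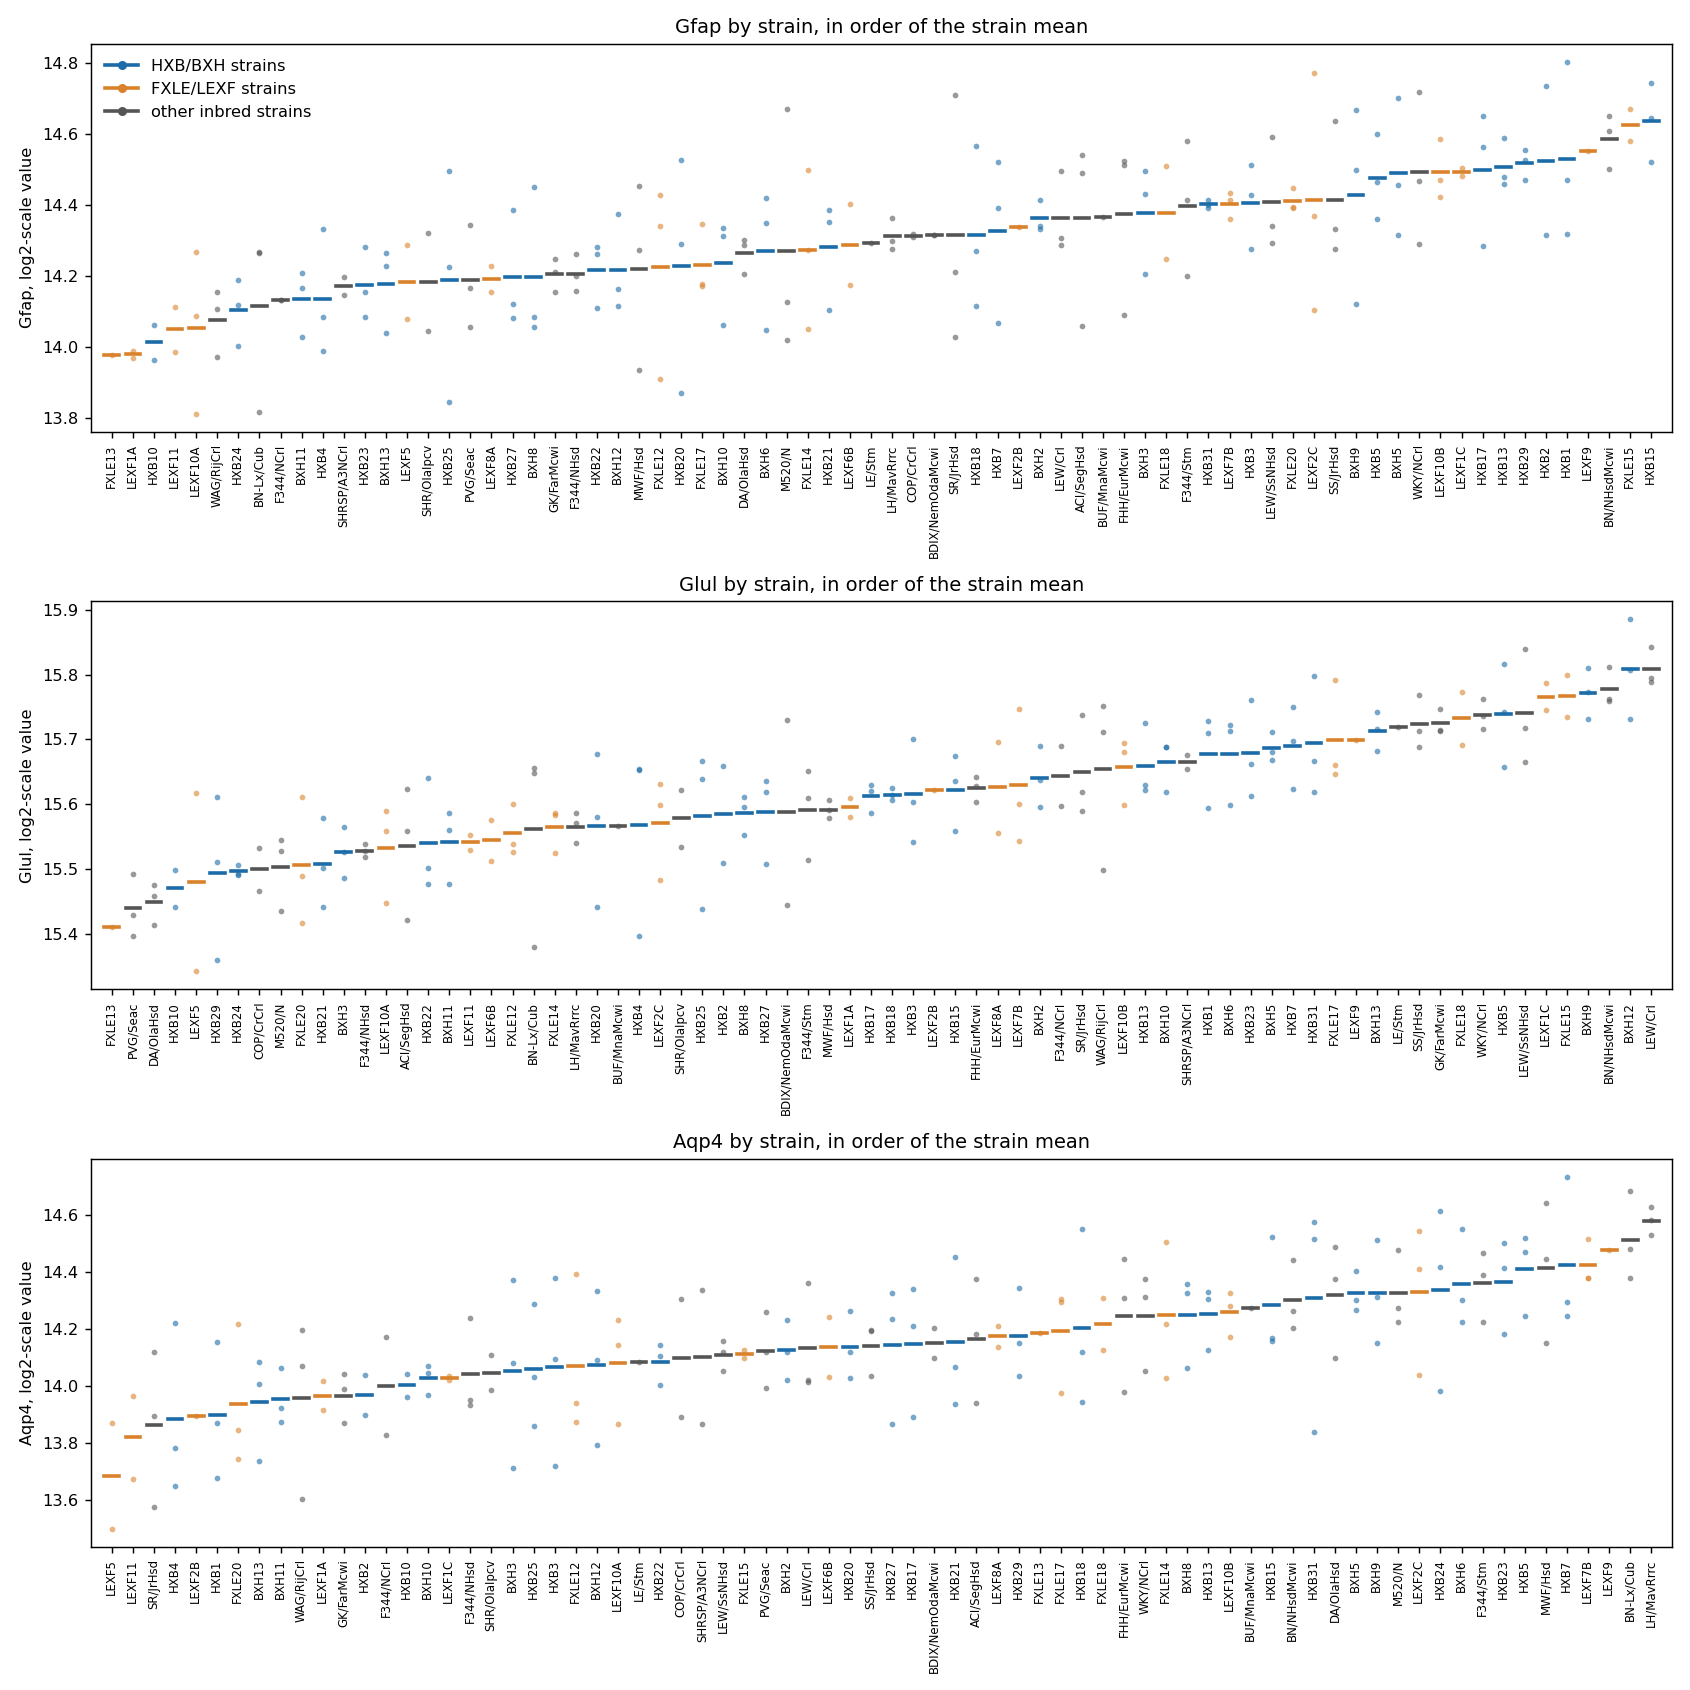
Levels of Gfap, Glul and Aqp4 on the deposited log2 scale in each strain, ordered by strain mean; points are animals and colours are panels. Gfap runs from 13.98 in LEXF1A/Stm to 14.64 in HXB15/Ipcv among strains with 2 or more animals, and the animals of neighbouring strains overlap.

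For each member, 0 of 68 neighbouring pairs in the order of 69 strains lay 1 standard error of their difference apart. The means of so many strains in order lie close by construction, and this says nothing on whether strains fall into groups. LEXF5/Stm stood at or next to the lower end for Aqp4, S100b, Slc1a3 and Gjb6, for which its animal 1 was at 13.87, 15.15, 14.60 and 10.62 and its animal 2 at 13.50, 14.78, 14.29 and 10.34. Animal 1 was higher than animal 2 in each of these genes. The repeated libraries of SHR/OlaIpcv give the spread of the measurement itself. The 12 libraries of animal 1 ran from 13.68 to 14.36 in Gfap with an SD of 0.197, and the 6 libraries of animal 4 ran from 14.00 to 14.75 with an SD of 0.269. Both SDs are at least as large as the within-strain SD of 0.181, and these libraries each came from another batch. For Glul the SDs between libraries of 1 animal were 0.0946 and 0.0591, against 0.0746 within strains.

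Sequencing batch was then entered beside strain, with 1 library kept for each animal, so that 2 settings changed together. The R2 expected with no strain effect was then 0.394. With 1 library per animal alone 6 members were called, where 35.6% of all genes were. With batch in the model 8 of the 10 genes were called, S100b (R2 of 0.508, adjusted p = 0.0344) and Aldoc (0.536, adjusted p = 0.00782) being added to the former 6, while the share of all genes called rose to 58.9%. Slc1a2 and Slc1a3 still did not pass (adjusted p = 0.129 and 0.0553). With quantile normalization S100b was called as well (R2 of 0.546, adjusted p = 0.00186), and in the v7.1 reconstructed table Gjb6 was lost (0.450, adjusted p = 0.219). With the batches of the titles instead, an alternative chosen after the data were seen, 7 were called, Aldoc being added, where 46.3% of all genes were. The calls also moved with the animals. Without the animals numbered 1, Aqp4 and Gja1 were lost (4 called, where 15.9% of all genes were), and without those numbered 3, Gfap and Gjb6 were lost (4 called, 29.1%). Without the animals numbered 2, Glul alone of the members was called, and 14.4% of all genes were. In the v5 table of Ensembl 96 genes, made by the authors from 132 animals of 45 strains, 9 of the 10 genes were called, where 63.6% of all genes were. There Slc1a2 had an R2 of 0.632 (adjusted p = 1.61e-06) and Slc1a3 an R2 of 0.546 (adjusted p = 7.04e-04), so that both transporters were called there. That table differs from v7.1 in processing and annotation and in its animals. With v7.1 restricted to the animals that v5 also holds, chosen after the data were seen, 4 members were called, where 22.8% of all genes were. Aqp4 and Gjb6 were lost and neither transporter was called.

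In the HXB/BXH family 4 of 10 were called, where 19.1% of all genes were: Gfap (R2 of 0.522, adjusted p = 0.0249), Aldh1l1 (0.591, 0.00205), Glul (0.655, 9.24e-04) and Gja1 (0.575, 0.00321). In the FXLE/LEXF family 0 of 10 passed limma's F-test after adjustment, where 4.61% of all genes did. In that family Gfap (R2 of 0.640), Aqp4 (0.631), Aldh1l1 (0.640), Glul (0.695) and Gja1 (0.599) had an unadjusted p of 0.0129, 0.0145, 0.0182, 0.0256 and 0.0369. Among the classic inbred strains Aqp4 (0.591, adjusted p = 0.0205), Gjb6 (0.746, 6.36e-04) and Glul (0.756, 2.76e-04) were called, where 19.3% of all genes were. With the batches of the titles in the model Aqp4 was lost there (adjusted p = 0.0613), where 15.6% of all genes were called. Glul was called in both HXB/BXH and the classic inbred strains. Without the animals numbered 1, 2 or 3 the count in HXB/BXH was 0, 2 or 0, where 8.04%, 9.31% and 8.26% of all genes were called, and the count among the classic inbred strains was 2, 0 or 1, where 10.4%, 5.75% and 11.5% were. In FXLE/LEXF it was 0, 0 or 2, where 0.599%, 0.288% and 6.52% were. The 2 were Aqp4 (adjusted p = 0.00917) and Gja1 (0.0446). With only the animals of the v5 table the count was 4 in HXB/BXH (19.6% of all genes) and 1 among the classic inbred strains (6.92%). Gfap had an R2 of 0.402 among the classic inbred strains, close to the 0.369 expected with no strain effect. Whether R2 differed between panels was not tested. By the study's methods, HXB/BXH brains were shipped from Prague in liquid nitrogen, while brains of classic strains bought from breeders went into RNAlater. Panel, source and storage cannot be told apart. The medians of the strain means were nearly level across the panels, for example 14.30, 14.29 and 14.31 for Gfap and 14.14, 14.13 and 14.14 for Aqp4.

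Recombinant strains inherit mixtures of the alleles of their progenitors, and the levels of the families were set beside those of the progenitors as a description. In HXB/BXH, 24 of 30 strains had a Gfap level above both SHR/OlaIpcv (14.18) and BN-Lx/Cub (14.12), 4 lay between them and 2 below. Aldoc lay above both progenitors in 28 of 30 strains and Slc1a3 lay below both in 23. For Aqp4, 23 of 30 strains lay between SHR/OlaIpcv (14.05) and BN-Lx/Cub (14.51), for Slc1a2 17, for S100b 16 and for Aldh1l1 14. The progenitor means differed by 0.47 for Aqp4 and by 0.067 for Gfap, and fewer strains can lie between closer means. In FXLE/LEXF, Slc1a3 lay below both progenitors in 18 of 19 strains, LE/Stm being a single animal.

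Contrasts of single strain pairs asked whether the members differ between the progenitors of each family and between strains bred for blood pressure. The pairs with SHR/OlaIpcv share its 2 animals. Between SHR/OlaIpcv and BN-Lx/Cub, 0 of 10 members passed limma's test at 5% FDR, and 2 had an unadjusted p under 0.05, where 1.87% of all genes were called higher and 2.63% lower in SHR/OlaIpcv. Aqp4 was at 13.98 and 14.11 in SHR/OlaIpcv and at 14.68, 14.38 and 14.48 in BN-Lx/Cub, a difference of -0.47 (SE 0.185, adjusted p = 0.129). Aldh1l1 was at 10.60 and 10.77 against 10.08, 10.49 and 10.37, a difference of 0.38 (SE 0.145, adjusted p = 0.117). With batch in the model and 1 library kept per animal, the difference of Aqp4 was -0.94 (adjusted p = 0.0446, 7.51% of all genes being called in either direction). The 12 libraries of SHR/OlaIpcv animal 1 ran from 13.80 to 14.65 in Aqp4. With 1 library per animal alone 0 members were called (2.63% of all genes). Without BN-Lx/Cub animal 2 Aldh1l1 was called (0.47, adjusted p = 0.0473, 8.52% of all genes being called). In the v5 table the difference of Aldh1l1 turned to -0.026 (adjusted p = 0.956). WKY/NCrl is the normotensive relative of SHR. By the study's methods, its rats came from Charles River or Envigo and their brains went into RNAlater. Brains of SHR/OlaIpcv were shipped from Prague in liquid nitrogen, so strain, source and storage cannot be told apart in this pair. Against WKY/NCrl, 0 of 10 members passed and 1 had an unadjusted p under 0.05, where 0.34% and 0.484% of genes were called higher and lower. That member was Glul, at 15.53 and 15.62 in SHR/OlaIpcv and at 15.74, 15.76 and 15.72 in WKY/NCrl, a difference of -0.16 (SE 0.0712, adjusted p = 0.472). SHR/OlaIpcv was the higher strain in 1 of the 10 members, Gja1. In the v5 table Gfap, Aldh1l1 and Glul were called for this pair, where 24.6% of all genes were called in either direction. In the v7.1 reconstructed table Glul and S100b were called, where 1.07% of all were.

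LE/Stm was a single animal, so its contrast with F344/Stm takes the spread from the other strains and assumes that LE/Stm varies as they do. Between F344/Stm and LE/Stm, 0 of 10 members passed, 1 had an unadjusted p under 0.05, and 0.134% and 0.662% of all genes were called higher and lower in F344/Stm. Aldh1l1 was at 10.70, 10.63 and 10.61 in F344/Stm and at 11.16 in the LE/Stm animal, a difference of -0.51 (SE 0.184, adjusted p = 0.308). The library of that animal was among those held in doubt, and without it the pair gives no value. Between SS/JrHsd, which develops high blood pressure on salt, and its resistant counterpart SR/JrHsd, 1 of 10 members was called and 2 had an unadjusted p under 0.05, where 0.781% and 0.206% of genes were called higher and lower. Gjb6 stood at 10.96, 10.75 and 10.68 in SS/JrHsd and at 10.37, 10.57 and 10.57 in SR/JrHsd. The difference was 0.29 (SE 0.0781, adjusted p = 0.0356), 1.22-fold. It was lost with the batches of the descriptions in the model (not with those of the titles), with the animals of the v5 table only (adjusted p = 0.0665), with libraries centred on their medians, in the v7.1 reconstructed table, and without SS/JrHsd animal 1, SS/JrHsd animal 2, SR/JrHsd animal 1 or SR/JrHsd animal 3. The other connexin, Gja1, differed by 0.32 between the same strains (SE 0.163, adjusted p = 0.489), with animals at 13.45, 13.10 and 12.95 against 12.98, 12.56 and 12.99.

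The next comparison set Gfap against the other 9 members. Over the means of 74 strains, 5 of 9 passed a two-sided permutation test after Benjamini-Hochberg adjustment over the 9 relations. The share of all genes that would pass was not computed. By r with Gfap over strain means, Aqp4 ranked 3180 and Gjb6 3523 of 20858 genes. Gfap rose with Aldh1l1 (Pearson's r = 0.59, Spearman's rho = 0.56) and Aldoc (0.56 and 0.56), both with an adjusted p of 4.5e-05 from a raw p of 1e-05, the smallest the 100000 permutations could give. It rose with Glul at r = 0.45 (rho = 0.42, adjusted p = 0.00018), a call lost with quantile normalization of the libraries (r = 0.23, adjusted p = 0.083). The relations with the endfoot water channel Aqp4 (r = 0.29, rho = 0.31, adjusted p = 0.026) and with Gjb6 (r = 0.27, rho = 0.31, adjusted p = 0.0326) were weak. Both calls were lost without the animals numbered 2 (r = 0.13 and 0.22) or 3 (0.25 and 0.17), in the v6 table (0.21 and 0.17), with only the animals of the v5 table (0.22 and 0.32) and within each panel, and that of Gjb6 also with median-centred libraries (0.17, adjusted p = 0.258). S100b (r = 0.20, adjusted p = 0.124), Slc1a2 (0.16, 0.221), Slc1a3 (0.15, 0.234) and Gja1 (0.0050, 0.967) did not pass. Without the 2 strains farthest from the median of Gfap, r stayed at 0.56 for Aldh1l1, 0.50 for Aldoc, 0.42 for Glul and 0.30 for Aqp4 and Gjb6.

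Strains of a family share progenitor alleles, so their means are not fully independent, and each mean also holds the chance differences of its 1 to 3 animals. The second view therefore used deviations of 192 animals from their strain means in the 69 strains with 2 or more animals, with animals permuted within strains. Here 7 of 9 members passed. The share of all genes that would pass was not computed. By r with Gfap within strains, Gjb6 ranked 5124 and S100b 5573 of 20858 genes, and 25.6% of genes were lower than Slc1a3. An r of the size of these 3 members was thus common among all genes. Aldh1l1 followed Gfap most closely, with r = 0.78 (rho = 0.76, adjusted p = 3e-05), followed by Aldoc (r = 0.51, rho = 0.52), Glul (0.47, 0.46) and Slc1a2 (0.39, 0.36, adjusted p = 4.5e-05). With quantile normalization the relation with Glul was lost (r = 0.020, adjusted p = 0.847). Gjb6 (r = 0.28, adjusted p = 0.00349) and S100b (0.24, 0.00753) had a lower r. Both were lost with median-centred libraries (both r = 0.14, adjusted p = 0.169 and 0.155), in the v6 table (0.21 and 0.15), with only the animals of the v5 table (0.22 and 0.17) and without the animals numbered 2 (both 0.29, adjusted p = 0.073). Gjb6 was also lost without those numbered 3 (0.24), and S100b without those numbered 1 (0.14) and with quantile normalization (0.13, adjusted p = 0.186). Slc1a3 went the other way, with r = -0.25 (rho = -0.22, adjusted p = 0.00923), a weak relation. Without the animals numbered 1 or 2 its adjusted p was 0.111 or 0.202, within HXB/BXH 0.188 (r = -0.19), and in the v7.1 reconstructed table r was 0.31 (adjusted p = 0.000484). Gja1 (r = 0.12, adjusted p = 0.238) and Aqp4 (0.066, 0.486) did not pass. These signs were the same without the 2 animals farthest from the median, with r = 0.78 for Aldh1l1 and -0.22 for Slc1a3. Libraries of SHR/OlaIpcv animals 1 and 4 had SDs of 0.238 and 0.180 in Aldh1l1, against 0.159 within strains. In Aldoc the SDs were 0.161 and 0.152, against 0.175. Those libraries each came from another batch. Differences between libraries and between animals cannot be told apart in these relations.

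**Figure D3:**
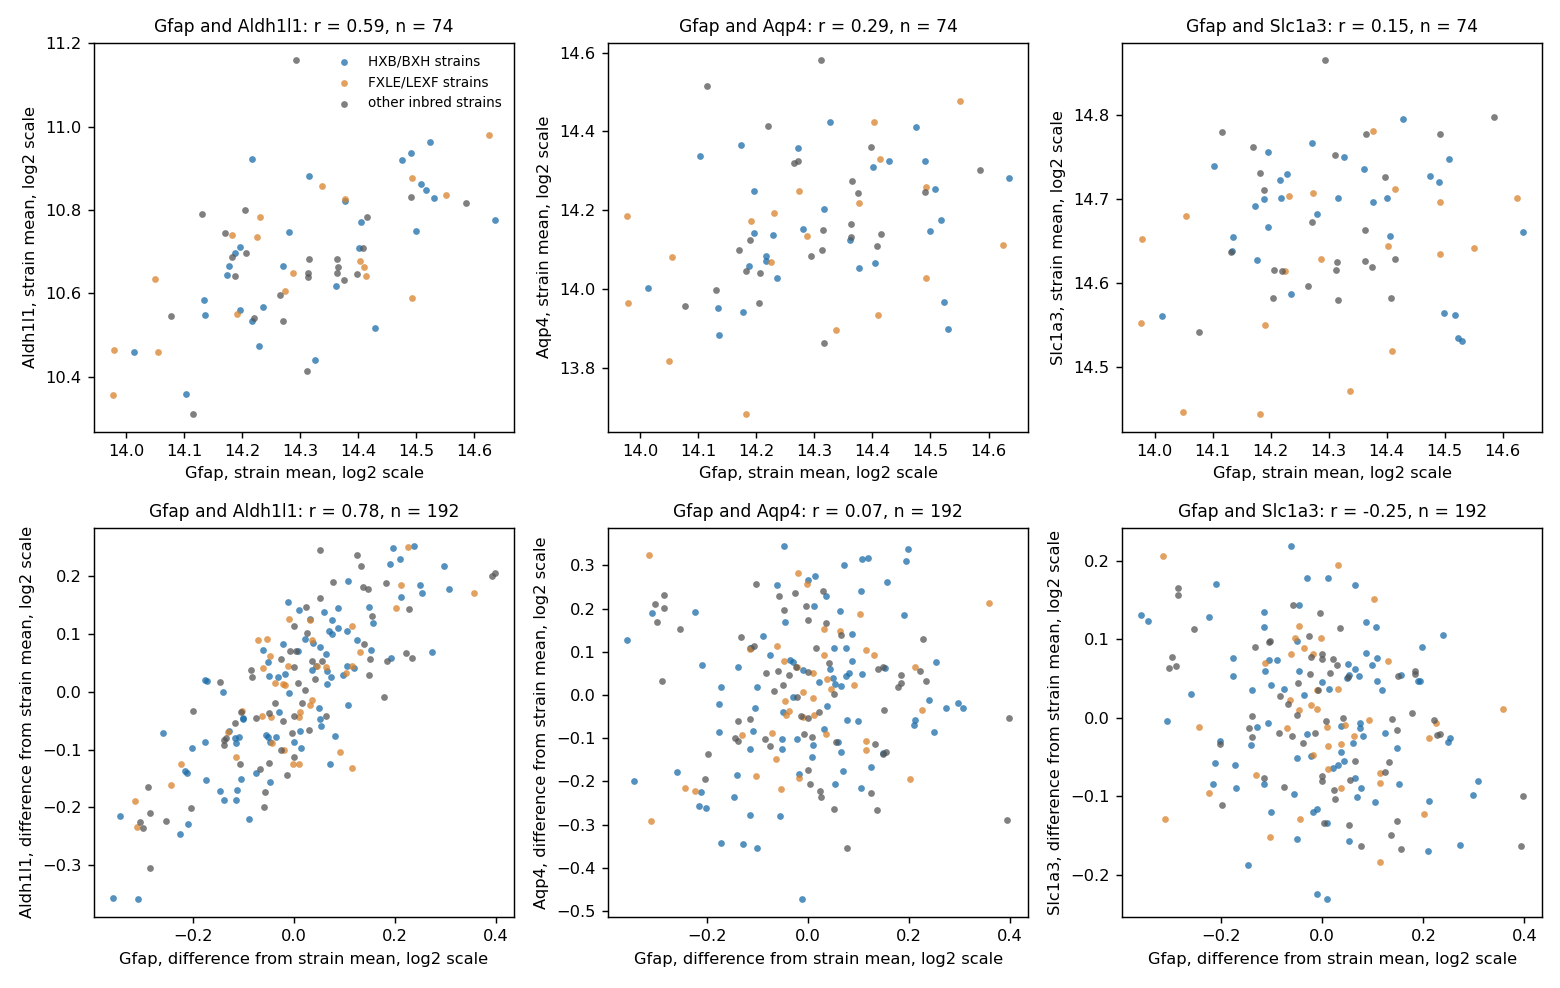
Gfap against Aldh1l1, Aqp4 and Slc1a3 on the log2 scale, as means of 74 strains and as deviations of 192 animals from their strain mean. Colours are panels. Aldh1l1 rises with Gfap in both views (r = 0.59 and 0.78), whereas r for Slc1a3 is 0.15 over strains and -0.25 within strains.

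Relations within single batches varied widely, from -0.39 to 0.96 for Aldh1l1, and are given as medians. In 15 batches of 6 to 20 animals, the median r of Gfap was 0.78 with Aldh1l1 (above 0 in 14 of 15 batches), 0.54 with Aldoc (14 of 15), 0.45 with Glul (14 of 15) and 0.31 with Slc1a2 (14 of 15). It was -0.15 with Slc1a3, above 0 in 2 of 15 batches. For Aqp4 the median was 0.19, above 0 in 8 of 15. Within panels, the strain means of HXB/BXH gave r = 0.65 for both Aldh1l1 and Aldoc (adjusted p = 7.65e-04) with 2 of 9 members past the threshold, and those of FXLE/LEXF gave 0.74 for Aldh1l1 with 4 of 9. Among the classic inbred strains 0 of 9 passed the permutation test after adjustment, 2 having an unadjusted p under 0.05 (Gjb6, r = 0.43, and Glul, 0.41), and Aldh1l1 was at 0.32. S100b gave -0.33 over the strain means of HXB/BXH and 0.66 over those of FXLE/LEXF, a difference that was not tested.

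The relations within strains moved together with a broad axis of the libraries. The first principal component of the within-strain deviations of 10429 genes held 37.2% of their variance. Gfap correlated with it at 0.62, Aldh1l1 at 0.71, Aldoc at 0.44, Slc1a2 at 0.33 and Glul at 0.31, while Aqp4 was at -0.60 and Slc1a3 at -0.58. S100b (-0.045), Gja1 (0.024) and Gjb6 (-0.14) were near 0. Aldh1l1, Aldoc, Slc1a2 and Glul thus lay on the same side of this axis as Gfap, and Aqp4 and Slc1a3 on the other. Batches accounted for 6.96% of the component. For independent values 8.38% would be expected with no batch difference, but deviations from strain means are not independent. The part of batch was not tested. With the component removed, an alternative chosen after the data were seen, the r of Gfap with Aqp4 became 0.71 and with Slc1a3 0.18 (adjusted p = 0.0889), while Aldh1l1 was at 0.62 and Gjb6 at 0.47. All 9 were then above 0 and 7 passed. The component was taken from the same deviations, so these r follow from the correlations with it given above and add no further test. Of the 7 fixed lists of other astrocyte and glial genes, 5 lay on the side of Gfap, with r = 0.61 for identity and development, 0.57 for glycogen, glycolysis and lipid supply, 0.52 for both the endfoot and the gap junction lists and 0.47 for glutamate and GABA handling. The list of intermediate filaments and reactive astrocytes was at 0.062 and that of Bergmann and radial glia at -0.017. Marker lists of other cells and regions moved with the component too, with r = 0.48 for microglia, -0.42 for oligodendrocytes, 0.37 for forebrain and 0.30 for neurons. The part of these cells and regions in the relations was not tested. Strain means had a broad axis as well, their first component holding 30.9% of the variance. Gfap correlated with that axis at 0.41, Aldh1l1 at 0.64, Aldoc at 0.47, Glul at 0.24 and Slc1a2 at 0.13. Aqp4 was at -0.61, Slc1a3 at -0.39, S100b at -0.25, Gja1 at -0.083 and Gjb6 at -0.067. The part of that axis in the relations over strain means was not tested.

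The relations also differed between the deposited tables, which differ in annotation and animals as well as in processing. Within strains of the v5 Ensembl table Gfap had an r of 0.51 with Aqp4, 0.50 with Gja1, 0.51 with Slc1a2 and 0.68 with Glul, and -0.044 with Slc1a3. In v7.1 with only the animals that v5 holds, 4 of 9 passed (Aldh1l1, Aldoc, Glul and Slc1a2), and Aqp4 and Gja1 did not. In the v7.1 reconstructed table all 9 were above 0 and passed, Slc1a3 at 0.31 and Aqp4 at 0.35. Aldh1l1 lay between 0.72 and 0.88 within strains in the 4 gene tables. Within strains Aldh1l1 had the highest r with Gfap of the 9 members in each of these 4 tables, and the sign of Slc1a3 depended on the table.

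**Figure D4:**
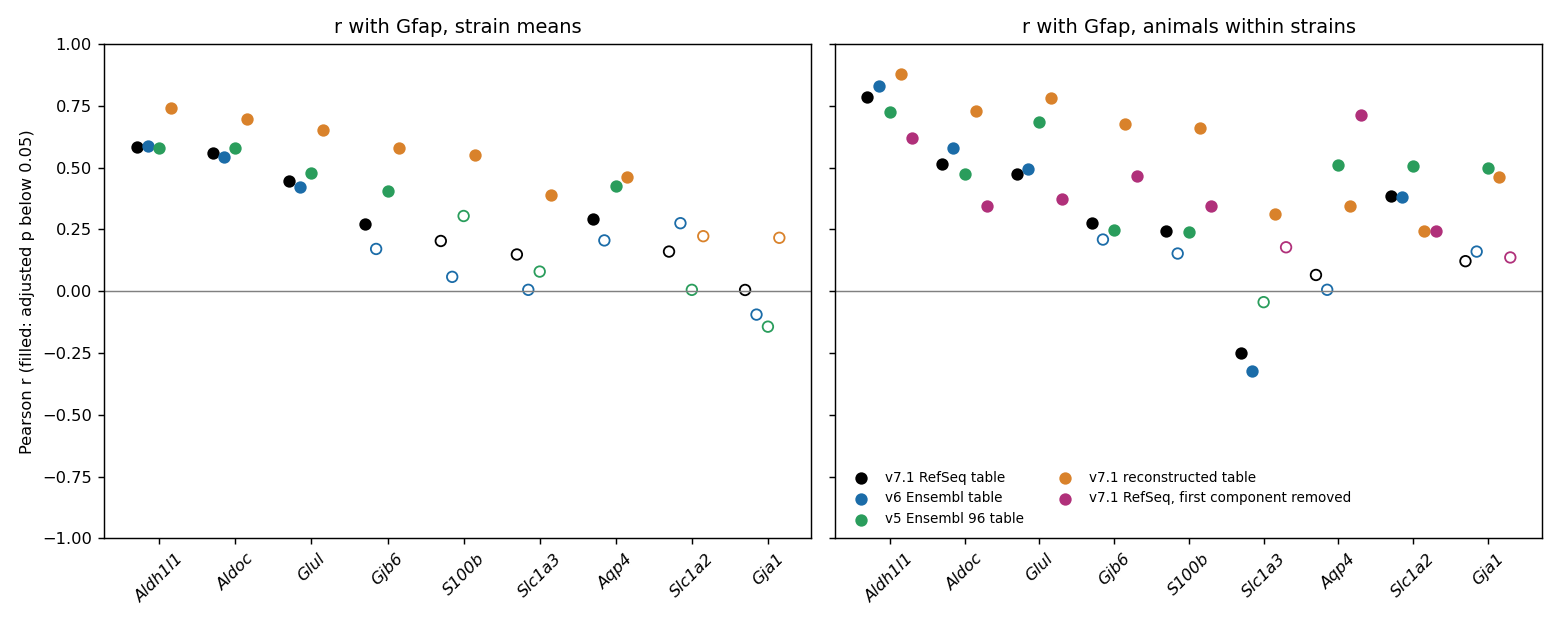
Pearson's r of Gfap with each other member, over strain means and within strains, in the v7.1 RefSeq, v6, v5 and v7.1 reconstructed tables and, within strains, with the first component removed; filled points have an adjusted p under 0.05. Aldh1l1 is past it in each setting, and Aqp4 within strains moves from 0.066 in the v7.1 RefSeq table to 0.71 with the component removed. That move follows from the opposite correlations of Gfap and Aqp4 with the component.

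Markers of other cell types were followed beside these relations, as a description without a test, over the same libraries. The mean standardized level of 10 microglia markers correlated with Gfap at 0.41 over strain means and 0.53 within strains. The 7 meninges markers gave 0.33 and 0.41, the 8 endothelial markers 0.39 and 0.42, and the 9 markers of ependyma and choroid plexus 0.31 and 0.38. The 12 neuron markers gave 0.18 and 0.33, and the 12 oligodendrocyte markers 0.25 and 0.18. Genes of 1 list did not all share its sign. Over strain means and within strains, r was above 0 for 7 and 7 of 12 neuron and 10 and 5 of 12 oligodendrocyte markers. It was above 0 for 8 and 7 of 10 microglia and 4 and 4 of 7 meninges markers. For endothelial markers this held for 6 and 6 of 8, and for ependyma and choroid plexus for 8 and 8 of 9. Markers of brain regions, which would follow an uneven dissection, gave 0.34 and 0.35 for hindbrain (11 genes), 0.40 and 0.078 for cerebellum, -0.014 and 0.031 for olfactory bulb, and -0.18 and -0.051 for forebrain. Their genes had an r above 0 in 11 and 11 of 11 for hindbrain and 9 and 7 of 10 for cerebellum. The counts were 3 and 3 of 8 for olfactory bulb and 5 and 5 of 12 for forebrain. The mean level of the microglia list ran from 9.27 to 9.90 over animals, that of the oligodendrocyte list from 13.04 to 13.84 and that of the neuron list from 13.14 to 13.62. The hindbrain list was low, at 2.80 to 4.59, and the olfactory bulb list lay at 5.10 to 7.00, both below the library medians of 8.18 to 8.42. No gene of any list had a median at or below 1. The part of cell or region content in the relations was not tested.

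All 45 pairs of members were then described, with no p. Over strain means 39 of 45 pairs had an r above 0, with a median of 0.20, and within strains 36 of 45, with a median of 0.19. Over all pairs of 10429 genes the medians were 0.0019 and 0.0027. An r above 0.3 was found in 14 and 13 of the 45 pairs (22.2% and 27.4% of all pairs). Aldh1l1 and Aldoc, both enzymes, gave 0.65 over strain means and 0.72 within strains. Aqp4 and Slc1a3, both membrane proteins of astrocyte processes, gave 0.58 and 0.66. Slc1a2 and Gja1 gave 0.41 and 0.51. Negative values included Aqp4 with Aldh1l1 (-0.19 and -0.23), Gja1 with Aldoc (-0.22 and -0.34) and Slc1a2 with Aldoc (-0.11 and -0.24). The transporters Slc1a2 and Slc1a3 gave 0.21 and 0.05.

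**Figure D5:**
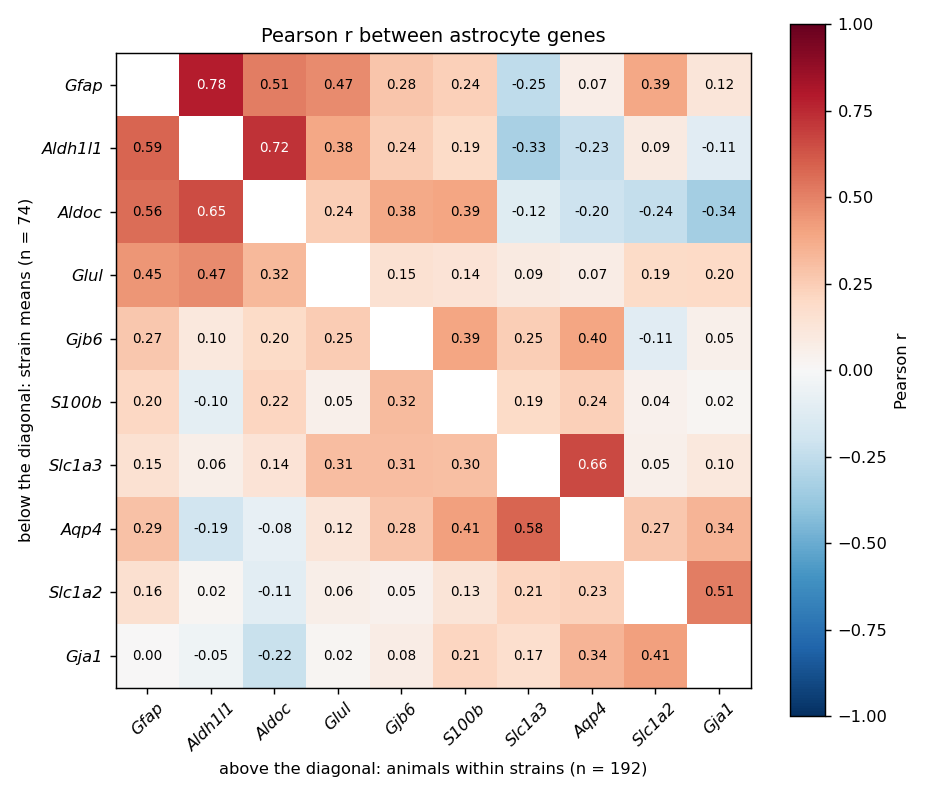
Pearson's r between the 10 members, below the diagonal over means of 74 strains and above it over deviations of 192 animals from their strain mean. Aldh1l1 with Aldoc (0.65 and 0.72), Gfap with Aldh1l1 (0.59 and 0.78) and Aqp4 with Slc1a3 (0.58 and 0.66) are the highest pairs.

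The promoters of Gfap, Aldh1l1 and Aldoc are shown because these genes moved most closely together. They are the 250 bases before the start site in RefSeq's GRCr8, a later assembly than rn6, written 5′ to 3′ on the strand of the gene: chr10:88361662-88361911 (minus strand) for Gfap, chr4:124616970-124617219 (plus strand in GRCr8) for Aldh1l1 and chr10:63715294-63715543 (plus strand) for Aldoc. Capitals mark the letters TGGCA, the half-site bound by nuclear factor I, and GGGCGG, the GC box, on either strand.
Gfap: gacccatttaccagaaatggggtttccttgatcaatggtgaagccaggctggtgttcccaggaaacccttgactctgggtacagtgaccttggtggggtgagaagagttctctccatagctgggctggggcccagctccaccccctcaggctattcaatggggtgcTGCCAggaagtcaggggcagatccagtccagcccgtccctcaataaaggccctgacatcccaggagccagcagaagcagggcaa
Aldh1l1: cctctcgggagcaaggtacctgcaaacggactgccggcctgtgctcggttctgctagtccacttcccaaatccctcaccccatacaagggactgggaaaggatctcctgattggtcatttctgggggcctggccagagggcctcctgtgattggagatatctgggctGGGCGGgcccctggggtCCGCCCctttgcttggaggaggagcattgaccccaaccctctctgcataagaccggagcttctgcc
Aldoc: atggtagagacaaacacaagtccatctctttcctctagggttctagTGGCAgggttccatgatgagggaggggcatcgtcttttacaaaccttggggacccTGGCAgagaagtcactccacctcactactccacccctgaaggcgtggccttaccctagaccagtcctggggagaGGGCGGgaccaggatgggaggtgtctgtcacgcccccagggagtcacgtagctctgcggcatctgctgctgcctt
Gfap held 1 nuclear factor I half-site, 84 bases before the start, Aldoc held 2 of them and 1 GC box, and Aldh1l1 held 2 GC boxes. Of 33469 promoters of the same length 41.4% held the half-site and 30.5% the GC box, so both are common, and a match is a description only. The TATA box TATAAA, held by 12.9% of all promoters, was found in none of the 16 start-site windows of the 10 members.

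Among all genes, Aldh1l1 ranked 110 of 20858 by r with Gfap over strain means and 5 within strains, and Aldoc ranked 205 and 1661. Slc1a3 ranked 15509 within strains. Genes above the median level whose strain means were among the most like those of Gfap were Bcan (r = 0.72), the brain proteoglycan brevican, Axl (0.72), a receptor tyrosine kinase, Gatad2a (0.72), C1qtnf5 (0.71), Micall1 (0.70), Mid1ip1 (0.69) and Lgi4 (0.69). Within strains they were Padi2 (0.81), an arginine deiminase that modifies GFAP, Pbxip1 (0.80), Phgdh (0.79), the enzyme that opens serine synthesis, Aldh2 (0.78), Aldh1l1 (0.78), Slc13a3 (0.78), Slc4a2 (0.78) and Pygm (0.78), a glycogen phosphorylase. The most negative gene was Ogt in both views (-0.73 and -0.79), which itself lay at -0.76 on the first within-strain component. The mean standardized strain level of the 9 other members was close to that of Yap1 (0.67), Sparcl1 (0.64), Lgi4 (0.63), S1pr1 (0.63), Sparc (0.62), Tns3 (0.62) and Sall1 (0.62). Gfap had rank 22 in that order, at 0.58, among 9841 genes. These are correlations in the same libraries and were not tested.

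Each member was also followed by transcript. The v7.1 RefSeq transcript table held 29 transcripts of the 10 genes, of which 7 were called (24.1%), where 13.9% of all 45918 transcripts were. They were the only transcript of Gfap (adjusted p = 0.0345) and 1 transcript each of Aqp4 (0.00395), Aldh1l1 (9.21e-04), S100b (0.00223), Slc1a2 (0.00149), Glul (0.00661) and Gja1 (0.00448). Slc1a2 and S100b were each called for 1 of 3 transcripts but not as genes, and Gjb6 was called as a gene with 0 of 2 transcripts. The called transcript of Slc1a2, NM_001035233.1, had an R2 of 0.572 and a within-strain SD of 0.192, while the other transcripts of Slc1a2, NM_001302089.1 and NM_017215.2, had SDs of 1.76 and 1.25 and deviated against each other within strains (r = -0.28). For 8 of the 29 transcripts the within-strain SD was over 1, and for Slc1a3 NM_001289942.1 it was 2.21. The called transcript of Aqp4, NM_001270558.2, was among them, with an SD of 1.79. Reads that isoforms share are divided by an estimate, and the levels of such transcripts are uncertain. With batch in the model, from descriptions or titles, 12 transcripts were called, where 23.1% and 17.8% of all transcripts were. Without the animals numbered 1, 2 or 3, 0, 1 or 1 were called, where 5.02%, 4.83% and 7.62% of all were.

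Other genes of astrocyte function were counted from fixed lists against the 37.3% of all genes called over strains. Of 13 other genes of glutamate and GABA handling, 9 were called, led by Slc1a1, the neuronal glutamate carrier (R2 of 0.682), Abat, the GABA transaminase (0.595), and Slc7a11, the cystine-glutamate exchanger (0.593). Of 12 genes of water, potassium and the endfoot, 6 were called, led by the potassium channel Kcnj10 (0.555), the bicarbonate carrier Slc4a4 (0.523) and Mlc1 (0.513). Of 5 other gap junction genes 4 were called, with Panx1 at 0.638 and Gjb2 at 0.600. Of 18 genes of glycogen, glycolysis and lipid supply 10 were called, led by the cholesterol exporter Abca1 (0.788), the lactate carrier Slc16a1 (0.689) and Ppp1r3c (0.619). Of 24 genes of astrocyte identity and development 15 were called, led by the metallothioneins Mt2A (0.714) and Mt1 (0.646) and by Cbs (0.668). The mean standardized level of the identity list followed Gfap at r = 0.71 over strain means and 0.74 within strains, and that of the endfoot list at 0.69 and 0.75. In these views, 22 and 17 of 24 identity genes and 12 and 11 of 12 endfoot genes had an r above 0. Of the named genes, Abca1 had an r of 0.13 with Gfap over strain means, Slc1a1 -0.33 and Kcnj10 0.15, against 0.53 for Mlc1 and 0.48 for Abat.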

How the data were processed

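RNA of rat brain was measured by stranded total RNA sequencing. Per the labels, the authors trimmed reads with cutadapt 1.9.1, used Bowtie2 (2.3.4.3 or 2.4.5), HISAT2, StringTie and RSEM (1.3.1 or 1.3.3), and named DESeq2. The deposited values are on a log2 scale. For the v5 tables the authors state a regularized log and removal of 1 unwanted factor. For v6 and v7.1 these steps are not given in the sources used here. No counts were given and the depth is unknown. Gene positions come from the deposited annotation of v5, whose positions are a unit of their own and not expression.

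The v7.1 RefSeq gene table held 20859 genes after 73 spike-in features were dropped, and 1 column of values was not used. Libraries of 1 animal were averaged, except with batch as a covariate and within single batches. There the library of the lowest batch number was kept for each animal. Strain effects and contrasts were tested with limma 3.58.1 in R 4.3.3 over all genes, with Benjamini-Hochberg adjustment and a 5% false discovery rate. Correlations were computed in Python 3.11.15 with scipy 1.17.1 and 100000 two-sided permutations, within strains for deviations, and adjusted over 9 relations. Members and lists were chosen with earlier results of these data known. Named genes were the 3 called genes of highest R2 in each list and the 8 genes with a pattern most like that of Gfap. Some genes that this rule selects are not reported here. The F-test was tested on simulated data with 20859 genes: it recovered 17% of genes shifted by 1 within-strain SD in part of the strains and 100% of those shifted by 2. Only 100 genes were shifted by each amount and 20659 were unchanged, whereas 37.3% of all genes were called in the data. The cutoff on p after adjustment depends on that share, so these percentages do not give the power in the data. Alternatives were batch as a covariate, a replicate block, 1 library per animal, other scalings, a filter on low values, single panels, the v5, v6 and reconstructed tables, and leaving out animals by number or libraries in doubt. Added after the data were seen were the removal of the first within-strain component, leaving out libraries low in Y-linked genes or LEXF5/Stm animal 2, the batches of the titles, and the animals of the v5 table only. Same-numbered animals of different strains deviated together at a median r of 0.0233, against -0.0106 for different numbers, so numbers were not taken as pairs.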

Additional observations from a re-analysis of the deposited data

How the results depend on the processing

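No read counts were given, so depth cannot be weighed, and with 1 to 3 animals a strain the calls depended on which animals were included. Leaving out all animals of 1 number also lowered the share of all genes called over all strains, from 37.3% to between 14.4% and 29.1%. Of 10 members called over all strains (6), leaving out animals by number gave 1 to 4. Within HXB/BXH (4) this gave 0 to 2, within FXLE/LEXF (0) 0 to 2 and among the classic inbred strains (3) 0 to 2. In FXLE/LEXF 0.599%, 0.288% and 6.52% of all genes were called without the animals numbered 1, 2 and 3. For SHR/OlaIpcv against BN-Lx/Cub (0) batch as a covariate gave 1, and leaving out animals 0 to 1. Against WKY/NCrl (0) 3 were called in v5 and 2 among reconstructed genes. For F344/Stm against LE/Stm, where LE/Stm was 1 animal, no counts are compared here. No value was possible for this pair without the libraries in doubt. For SS/JrHsd against SR/JrHsd (1) batch as a covariate, median-centred libraries and the reconstructed table gave 0, and leaving out animals 0 to 1. Correlations with Gfap over strain means (5 of 9) numbered 2 within HXB/BXH, 0 within the classic inbred strains, 3 in the v6 table and 3 to 6 without the animals of 1 number. Within strains (7 of 9) they numbered 4 within HXB/BXH, 2 within FXLE/LEXF and 4 to 6 without the animals of 1 number. Transcripts called (7) numbered 12 with batch as a covariate, also with the batches of the titles, and 0 to 1 without the animals of 1 number. With only the animals of the v5 table, 1 member was called among the classic inbred strains, 0 for SS/JrHsd against SR/JrHsd, 3 relations passed over strain means and 4 within strains. These animals gave no value within FXLE/LEXF or for F344/Stm against LE/Stm, and the batches of the titles gave none for SHR/OlaIpcv against WKY/NCrl. Over all genes, 12293 were called with batch, 3003 to 6065 without the animals of 1 number, and 7785 with neither change.

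The replicate block left 6 members called over all strains, where 38.3% of all genes were. It left 1 call for SS/JrHsd against SR/JrHsd, where 0.968% of all genes were called in either direction. It left 7 transcripts, where 13.9% of all transcripts were called, and 5 relations over strain means and 7 within strains. In FXLE/LEXF the block gave 1 call, Gfap (adjusted p = 0.0472 by limma), where 4.32% of all genes were called. The numbers do not pair the animals, so the block is no paired analysis.

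Directions turned as follows, and the cause was not tested. The difference of Aldh1l1 between SHR/OlaIpcv and BN-Lx/Cub was -0.026 in the v5 table. Over strain means r of Gfap with S100b was -0.33 within HXB/BXH and -0.088 with the animals of the v5 table. With Slc1a3 it was -0.13 within HXB/BXH, -0.095 with the animals of the v5 table and -0.068 to 0.21 without the animals of 1 number. With Gja1 it was 0.22 within FXLE/LEXF and in the reconstructed table, and -0.12 within HXB/BXH, -0.0052 within the classic inbred strains, -0.0011 with batch, -0.0034 with 1 library per animal, -0.056 to 0.056 without the animals of 1 number, -0.018 with median-centred libraries, -0.0072 without the LEXF5/Stm library that stands apart, -0.15 with the animals of the v5 table, -0.14 in the v5 and -0.095 in the v6 table. Within strains r with Aqp4 was -0.32 among the classic inbred strains and -0.025 to 0.17 without the animals of 1 number, and r with Slc1a3 was 0.31 in the reconstructed table and 0.18 with the first component removed. With quantile normalization the relation of Gfap with Glul was lost in both views (0.23 and 0.020). Of 171 values of r over strain means under alternatives, 130 had the same direction and side of the threshold, and 154 of 189 within strains were counted likewise. The 189 include the median r within batches of each member, which has no p, so that only its direction was compared.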

Other observations

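Of 26 genes of intermediate filaments and reactive astrocytes 22 were called over strains (84.6%), where 37.3% of all genes were, with a median R2 of 0.56 (0.45 over all genes). The difference from other genes was not tested. Serpina3n, an acute-phase protease inhibitor (R2 of 0.794), the complement component C3 (0.753) and the iron-binding lipocalin Lcn2 (0.709) had the highest R2. Their strain means followed Gfap at r = -0.054, 0.16 and 0.095, and the mean standardized level of the whole list at 0.41 over strain means and 0.50 within strains. Of the 26 genes of the list, 22 and 17 had an r above 0 in these views. All 10 microglia markers and all 7 meninges markers were called, Itgam having an R2 of 0.847. Of the oligodendrocyte markers 11 of 12 were called and of the blood and liver markers 7 of 8. The endothelial list had 5 of 8 called, the ependyma and choroid plexus list 5 of 9, the olfactory bulb list 5 of 8 and the Bergmann and radial glia list 5 of 9. Neuron markers were called in 6 of 12, forebrain markers in 4 of 12, hindbrain markers in 2 of 11 and cerebellum markers in 2 of 10. The blood and liver list followed Gfap at r = 0.041 over strain means and 0.28 within strains, and the Bergmann and radial glia list at 0.41 and 0.28. In these views, 3 and 6 of 8 blood and liver genes and 7 and 6 of 9 Bergmann and radial glia genes had an r above 0.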
